A study of Mus musculus with 24 samples.

Results

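miR-204 is the microRNA (miRNA) described here, measured in mouse muscle stem cells before and after muscle injury. It is 1 of 584 miRNA assays in the series, and its rows were found by assay name, mmu-miR-204, on card A, which holds 375 of them in its own 12 arrays. It was selected on its U6-normalized level, which was seen to fall in these same arrays, so its levels and changes are given as a description with no test. The series has 24 real-time PCR arrays: 4 groups, each measured 3 times on card A and 3 times on card B. The labels give male C57BL/6 mice aged 8 weeks as the source. The 0 h group holds quiescent stem cells (QSC) and the groups at 36, 60 and 72 h after injury hold activated stem cells (ASC). No group carries a transgene or a drug treatment in the labels, and no cell sort is named. Since the series describes its 3 replicates as technical, the spread and the p-values below do not cover variation between mice. The authors' deposited tables head the last time point day 3.5, whereas 72 h is used here from the labels.

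A miRNA is a short RNA that guides Argonaute proteins to messenger RNAs, mainly by pairing of its seed, the bases near its 5′ end. The gene for miR-204 lies in an intron of Trpm3, which encodes a cation channel. miR-204 is known as an abundant miRNA of the retinal pigment epithelium and choroid plexus, and in mesenchymal progenitors it is reported to repress Runx2, the transcription factor that directs bone formation. Its relative miR-211, in the melanocyte gene Trpm1, carries the same seed.

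The mature strands are printed because the comparison of both strands and of the relative rests on them. They are the RefSeq sequences of build GRCm38.p6, written 5′ to 3′, with the seed (bases 2 to 8) in capitals.
mmu-miR-204-5p: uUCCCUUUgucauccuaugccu
mmu-miR-211-5p: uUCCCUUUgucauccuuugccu
mmu-miR-204-3p: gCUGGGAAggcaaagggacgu
The hairpin that gives both strands of miR-204 is at chr19:22750605-22750672 on the plus strand, inside the bounds of Trpm3, and is shown with the 5p strand in capitals.
Mir204 hairpin: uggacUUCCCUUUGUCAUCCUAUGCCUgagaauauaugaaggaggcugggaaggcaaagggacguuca
The assay named miR-204 measures the 5p strand, the guide, and the assay named rno-miR-204* is for the 3p strand, the passenger, under its rat name. The 5p strands of miR-204 and miR-211 are both 22 bases long and differ at 1 position, A17U, counted from the 5′ end of miR-204. Of 1738 mature mouse sequences in the RefSeq table, 3 carry the seed UCCCUUU, those 2 strands and mmu-miR-7670-3p.

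miR-204 was measured on all 12 arrays of card A, in 1 spot each. Each array gives a threshold cycle (Ct), the number of PCR cycles needed to reach a set signal, so a lower Ct means more RNA. The Ct of miR-204 was 23.2, 23.3 and 23.4 in the 3 arrays at 0 h. It was 22.1, 22.1 and 22.3 at 36 h. At 60 h it was 26.3, 26.1 and 26.4, and at 72 h 27.4, 27.7 and 27.5. The 36 h arrays thus had the most signal and the 72 h arrays the least, and every array lay well inside the detection limit of Ct 35. No array of 1 group overlapped with those of another.

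Levels are the mean Ct of the array's 4 U6 small nuclear RNA spots minus that of the assay. This is a log2 scale, and a higher value means more RNA. The level of miR-204 was -7.94 ± 0.11 (SD, n = 3 arrays) at 0 h and -7.27 ± 0.10 (SD, n = 3) at 36 h. It was -10.90 ± 0.13 (SD, n = 3) at 60 h and -12.40 ± 0.13 (SD, n = 3) at 72 h. The order of levels was therefore 36 h, 0 h, 60 h and 72 h. The closest neighbours in that order, 36 h and 0 h, were 0.67 apart, against an SD pooled over the pair of 0.11, and their arrays did not overlap.

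miR-204 was not lower at 36 h: relative to U6 it was 1.59-fold above 0 h (log2 0.67). It was 7.80-fold below 0 h at 60 h (log2 -2.96) and 22.0-fold below at 72 h (log2 -4.46). From 36 h to 60 h the level fell by 3.63 on the log2 scale (12.4-fold), and from 60 h to 72 h the fall was 2.82-fold. The whole change from 36 h to 72 h was -5.13 on the log2 scale. Relative to U6, the loss thus lay after 36 h. In bulk RNA, fewer cells that hold miR-204 and less miR-204 per cell cannot be told apart. The authors' deposited table gives average fold changes of 1.59 at day 1.5, 0.129 at day 2.5 and 0.0455 at day 3.5 for this assay.

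**Figure D1:**
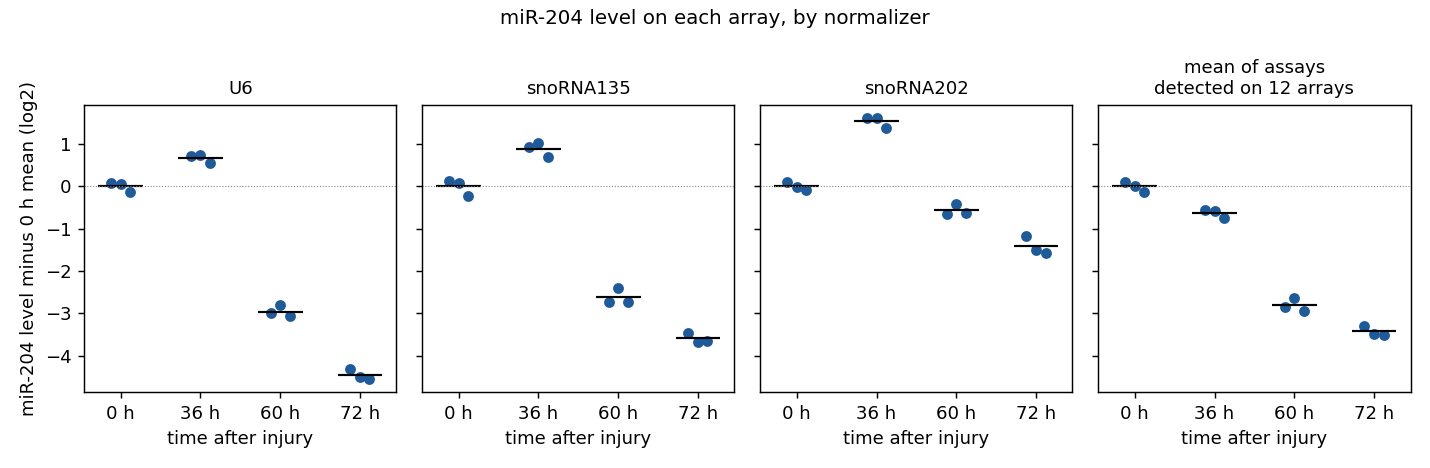
miR-204 level on each card A array minus its 0 h mean (log2, y axis) by time after injury (x axis), with 4 normalizers in 4 panels; points are single arrays and bars are means of 3. With U6 the means sit at 0.67, -2.96 and -4.46 at 36, 60 and 72 h; with snoRNA202 they sit at 1.54, -0.56 and -1.41, and with the average of the assays found on every array (right) the 36 h value is below 0 (-0.62).

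The size of the fall depended on the reference RNA, and the direction at 36 h did too. The small nucleolar RNA snoRNA202, which guides RNA modification, was itself lower against U6 in the later groups on card A (log2 -0.88 at 36 h, -2.40 at 60 h, -3.05 at 72 h). With snoRNA202 as normalizer the log2 change of miR-204 was 1.54, -0.56 and -1.41, so the 60 h value was 1.47-fold below 0 h and the 72 h value 2.66-fold. With snoRNA135, which moved less against U6 (log2 -0.22, -0.34 and -0.87), it was 0.88, -2.63 and -3.60. With the cytoplasmic Y1 RNA it was 0.014, -3.07 and -4.14, and with U87 0.82, -1.91 and -2.96. The average of those card A assays that every array detected, called the assay mean here, gave -0.62, -2.81 and -3.43. All 6 normalizers put miR-204 below 0 h at 60 and 72 h. At 36 h it was above 0 h with 4 of them, at 0.014 with Y1 and below 0 h with the assay mean.

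A comparison with the other assays of card A needs no reference RNA, because the reference cancels. At 36 h the median of the 177 assays measured in both groups was a log2 change of 0.91, and miR-204 was 0.24 below it, at percentile 42.9 of the assays counted from the lowest. At 60 h the median of 168 assays was -0.49; miR-204 was 2.47 below it, at percentile 16.1. At 72 h the median of 166 assays was -1.37, and miR-204 was 3.09 below it, at percentile 9.64. miR-204 thus sat near the middle of its card at 36 h and in the lower tail afterwards.

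Among the assays that fell relative to U6, miR-204 had no rank at 36 h, when 49 of 177 were below 0 h. It was number 27 of 96 falling assays at 60 h and number 16 of 119 at 72 h, with number 1 the largest fall. With undetected values set to Ct 35 it was number 34 of 108 and number 23 of 134, and without 1 replicate it lay between 21 and 25 and between 13 and 16. With snoRNA202 as normalizer miR-204 kept numbers 27 and 16, but only 32 assays fell at 60 h and 37 at 72 h. At 60 h its neighbours in that order were miR-411 (log2 -3.06) just above and miR-376c (-2.80) just below. At 72 h they were miR-195 (-4.47) and miR-150 (-4.21). Set against 36 h in place of 0 h, miR-204 ranked higher, number 13 of 148 falling assays at 60 h and number 4 of 171 at 72 h. The assays detected in all 3 arrays at 0 h but in at most 1 later, 11 at 60 h and 13 at 72 h, have no measured fall and are not in the ranks. The ranks against 36 h leave out more assays lost in this way, 22 at 60 h and 25 at 72 h.

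**Figure D2:**
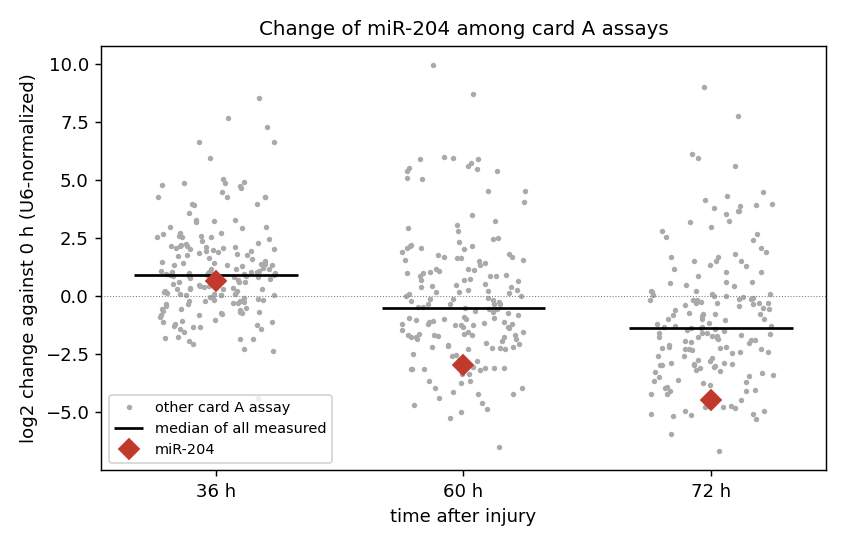
Log2 change against 0 h relative to U6 (y axis) of every card A assay measured in both groups (grey points), at 36, 60 and 72 h (x axis), with the median as a bar and miR-204 as a red diamond. miR-204 lies 0.24 below the median at 36 h, 2.47 below at 60 h and 3.09 below at 72 h.

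An order of levels like that of miR-204 was common on the card. Of 161 card A assays measured in at least 2 arrays of every group, 51 (31.7%) were above 0 h at 36 h, below 0 h at 60 h and lower again at 72 h, relative to U6. Within these 51, miR-204 had the second deepest fall from 36 h to 72 h, after miR-136 (log2 -5.46). Its range over the 4 group means, 5.13, was number 20 from the widest of the 161.

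The relative miR-211, on the same card, gave no Ct on any of the 12 arrays, so its change could not be measured. Absent miR-211 and an assay that did not work cannot be told apart here. Of the 584 assays, 219 were detected on no array. The assay of miR-204 gave a Ct of 22.1 to 27.7 on the same arrays. The authors' deposited table nevertheless holds fold changes for miR-211, namely 0.711 (day 1.5), 1.01 (day 2.5) and 0.836 (day 3.5). Since the single-array files hold no Ct for this assay, these folds are not measured ratios and show no stable level of miR-211. In the groups at 36, 60 and 72 h, the U6 Ct of card A averaged 14.88, 15.39 and 15.12, against 15.37 before injury. The folds rank in the same order as these U6 means. How the authors obtained the folds was not tested.

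The passenger strand, on card B, is a separate assay that the choice of miR-204 did not use. Its Ct was 30.3, 31.0 and 30.5 at 0 h, and 29.3, 29.1 and 29.3 at 36 h. At 60 h none of the 3 arrays gave a Ct. At 72 h 1 array gave none, 1 gave 35.9, past the detection limit, and 1 gave 34.7, just inside it. The passenger strand was thus detected in every array at 0 and 36 h and in 1 of 6 arrays later.

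At 36 h the log2 change of the passenger strand was 0.57 ± 0.17 (SE, limma, adjusted p = 0.0215), from -15.08 to -14.51. It did not reach the 2-fold minimum of a call, and with snoRNA202 it was 1.68, a call, while with the assay mean it was -0.21. The guide strand changed by 0.67 over the same interval. At 60 h the passenger strand was at least 21.7-fold below 0 h relative to U6, with the 60 h arrays set to Ct 35. At 72 h it was 17.6-fold below 0 h in the array that detected it. The guide fell 7.80-fold and 22.0-fold at these times, also relative to U6. The passenger folds would be smaller with snoRNA202, itself lower against U6 on card B (log2 -2.55 at 60 h, -2.61 at 72 h). Both strands were low at 60 and 72 h, and the difference between them was not tested. The authors' deposited table gives 7.36 at day 1.5, 0.00147 at day 2.5 and 0.0308 at day 3.5 for the passenger strand, against a fold of 1.49 at 36 h here. The cause of that gap was not tested. The deposited 0.00147 belongs to a time at which no single array gave a Ct, so it is not a measured ratio. It cannot be compared with the 21.7-fold bound, which was set at Ct 35. Not every 72 h array gave a Ct either, so the same caution holds for 0.0308.

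Of 85 card B assays detected in 3 of 3 arrays at both 0 h and 36 h, 6 (7.06%) were detected in no array at 60 h, and 75 were detected in 3 of 3. The passenger strand of miR-204 was among the 6, with miR-218-1*, miR-326, miR-376a*, miR-696 and rno-miR-136*. These 5 are named after their values were seen.

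**Figure D3:**
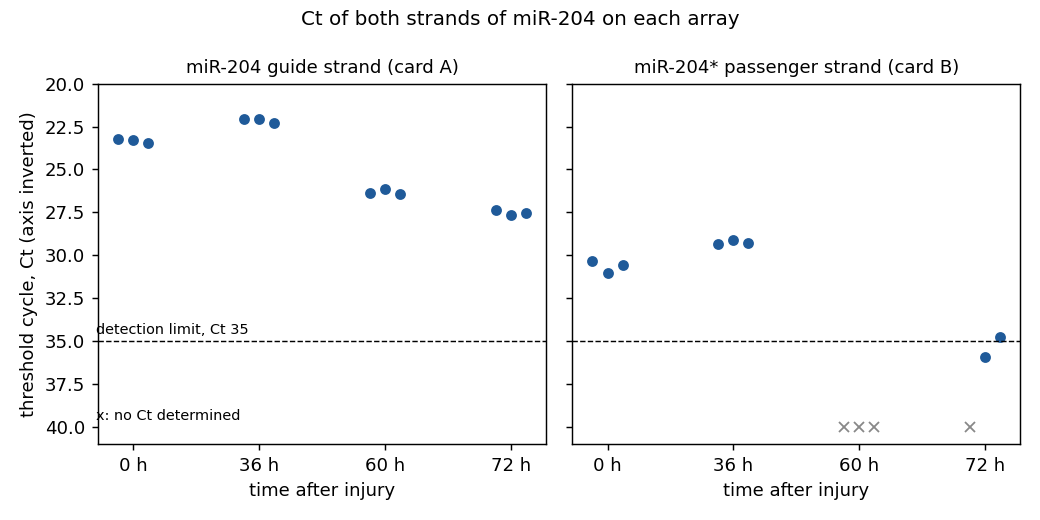
Ct (y axis, inverted so that more RNA is higher) of the guide strand on card A (left) and of the passenger strand on card B (right) on each array, by time after injury (x axis); the dashed line is the detection limit and crosses are arrays with no Ct. The guide stays between 22.1 and 27.7, while the passenger goes from 30.3 to 31.0 at 0 h to no Ct on 3 of 3 arrays at 60 h.

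The assays with the changes most like those of miR-204 were found by the root mean square difference of the 3 log2 changes, which does not depend on the normalizer. Among 160 assays they were miR-136 (0.19), miR-195 (0.27), miR-411 (0.37), miR-150 (0.46), miR-26a (0.46) and miR-376c (0.51). miR-136 was at 0.73, -3.14 and -4.73 at 36, 60 and 72 h, and miR-195 at 0.42, -2.58 and -4.47, beside 0.67, -2.96 and -4.46 for miR-204. miR-136, miR-411 and miR-376c come from the imprinted Dlk1-Dio3 locus, miR-195 is a miRNA reported to restrain the cell cycle in quiescent cells, and miR-150 is best known in lymphocytes. None of them carries the miR-204 seed.

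By Pearson correlation of levels over the 12 arrays, the highest were miR-376a (0.996), miR-26a (0.995), miR-203 (0.994), miR-195 (0.993), miR-30d (0.993) and miR-411 (0.993). The arrays share U6 and the 4 groups, and 66 of the 160 assays (41.3%) exceeded 0.9, so a high correlation was usual. The median over the 160 was 0.844. With the assay mean as normalizer, 2 of the 6 stayed among the 6 highest, miR-195 and miR-30d.

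**Figure D4:**
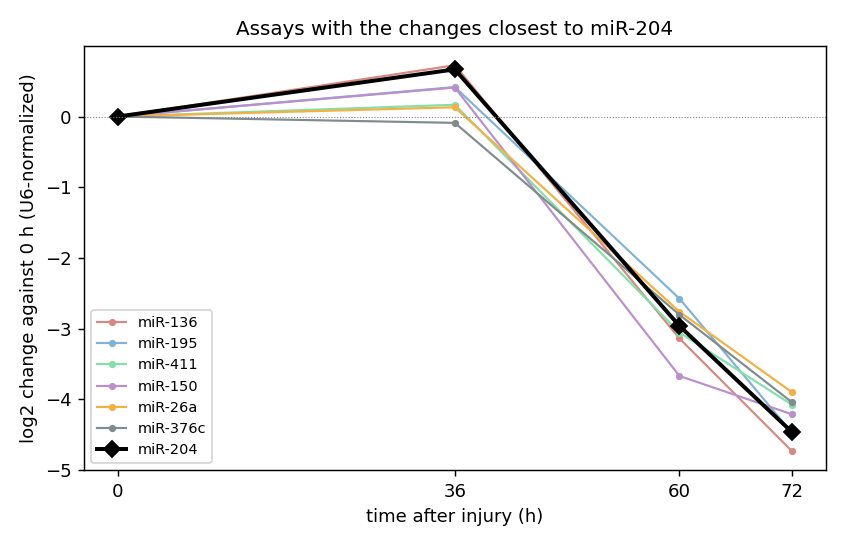
Log2 change against 0 h relative to U6 (y axis) by hours after injury (x axis) for miR-204 (black) and the 6 card A assays with the smallest root mean square difference from it. At 72 h miR-204 is at -4.46, between miR-195 (-4.47) and miR-150 (-4.21).

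miRNAs reported in quiescent muscle stem cells formed the first list set beside miR-204. It holds miR-489, which restrains entry into the cell cycle, miR-195 and miR-497, which share a precursor transcript, and miR-708, which is reported to hold the cells in their niche. The study published from these samples was on miR-489, so the list is no independent evidence of its direction. Here an assay was called at an adjusted p below 0.05 (limma, Benjamini-Hochberg over the assays of both cards) and at least a 2-fold change. Of the list's 5 assays (miR-489 has 1 for mouse and 1 for rat), 3 were lower at 36 h and 0 higher, when 12.1% of the 272 tested assays were called lower. All 5 were lower at 60 h, against 36.4% of 250, and all 5 at 72 h, against 45.9% of 244. Their median log2 change was -1.26, -3.96 and -4.75, and that of all tested assays 0.82, -0.37 and -0.77. With snoRNA202 the list had 0 lower and 2 higher at 36 h, 3 lower at 60 h and 4 lower at 72 h. Over all tested assays that normalizer gave 6 lower and 180 higher of 272 at 36 h. It gave 20 lower of 250 at 60 h and 24 lower of 244 at 72 h.

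The members of this list parted at 36 h. miR-489 and miR-708 were already lower, at -1.40 ± 0.16 (SE, limma, adjusted p = 2.39e-05) and -1.26 ± 0.07 (adjusted p = 5.29e-08), calls that were lost with snoRNA202 (-0.52 and -0.38). miR-195 and miR-497 were at 0.42 ± 0.06 and 0.82 ± 0.07, below the 2-fold minimum, and at 1.29 and 1.69, both calls, with snoRNA202. The 36 h value of miR-204, 0.67, lay between those of miR-195 and miR-497. At 72 h the log2 changes were -6.66 for miR-489 on the mouse assay, -4.75 for miR-708, -4.47 for miR-195 and -3.95 for miR-497. The value of miR-204, -4.46, was within this range.

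miRNAs reported with miR-204 to repress Runx2 formed the other list, and most were not measurable at 0 h. Of its 10 assays, 3 could be tested: miR-133a, miR-218 and miR-30c. miR-217 and miR-23a were detected on no array. miR-135a, miR-137 and miR-205 were detected in 3 of 3 arrays at 36 h and in none of the other groups. miR-34c was detected in all arrays of the 3 later groups and none at 0 h, and miR-338-3p in 3 arrays at 36 h and 2 at 72 h. Gains at 36 h were also found outside this list. Of the 375 card A assays, 29 were detected in 3 arrays at 36 h and in at most 1 at 0 h, and 3 the other way. The mean U6 Ct of card A was also lower at 36 h, 14.88 against 15.37 at 0 h.

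The 3 testable members did not share 1 course. miR-133a, a muscle miRNA, rose 3.79-fold at 36 h, 4.56-fold at 60 h and 9.17-fold at 72 h (log2 3.20 ± 0.07 at 72 h, limma adjusted p = 4.02e-11), though the 36 h call was lost with the assay mean (log2 0.63). miR-30c was not called at 36 h (log2 -0.12, and -1.41, a call, with the assay mean). It fell 2.56-fold at 60 h and 5.36-fold at 72 h, while with snoRNA202 it was at 1.05 and 0.63. miR-218, whose guide comes from introns of Slit genes, rose 4.33-fold at 36 h, a call lost with the assay mean (log2 0.82). It was 2.76-fold below 0 h at 72 h (log2 -1.47 ± 0.15, limma adjusted p = 5.73e-06), but at 1.58 with snoRNA202, and the call was lost with snoRNA135 (-0.60) and the assay mean (-0.43). By count, 2 were higher and 0 lower at 36 h, 1 higher and 1 lower at 60 h, and 1 higher and 2 lower at 72 h. With snoRNA202 none of the 3 was lower at any time. Few of all tested assays were lower with it: 6 of 272, 20 of 250 and 24 of 244 in turn. Relative to U6, the share of all tested assays called higher was 44.1%, 28.0% and 20.9% in the 36, 60 and 72 h groups. The share called lower was 12.1%, 36.4% and 45.9%.

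miRNAs of other cell types changed over the same arrays, and their part in the course of miR-204 was not tested. The sum of linear levels over a list, on the log2 scale against U6, treats all assays as equally efficient and is set mainly by its most abundant members. For the 2 endothelial assays, both strands of miR-126, it ran from -4.52 to -4.44 at 0 h, from -2.29 to -2.28 at 36 h, from -6.28 to -6.19 at 60 h and from -6.42 to -6.40 at 72 h. For the 5 mesenchymal and smooth muscle assays it ran from -3.23 to -3.11, from -2.76 to -2.70, from -6.16 to -6.13 and from -6.82 to -6.75. For the 6 leukocyte assays it ran from -5.38 to -5.34, from -3.72 to -3.65, from -6.57 to -6.44 and from -7.42 to -7.28. Relative to U6, all 3 sums were thus highest at 36 h and below 0 h at 60 and 72 h, as miR-204 was. At 0 h the leukocyte sum was set mainly by miR-150 (level -5.53, the next assay at -9.58), one of the assays closest to miR-204. The mesenchymal sum was set mainly by miR-145 there (-3.41, the next assay at -6.46). miR-145 itself was not higher at 36 h (log2 -0.33, not a call). With snoRNA202 the endothelial sum stayed above 0 h (log2 0.63 at 60 h and 1.10 at 72 h), as did the leukocyte sum (1.26 and 1.09), while the mesenchymal sum was below it (-0.57 and -0.56).

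Over all tested assays, 44.1%, 28.0% and 20.9% were called higher at 36, 60 and 72 h and 12.1%, 36.4% and 45.9% lower, which is the background for the counts of each marker list here. By call, both endothelial assays were higher at 36 h and both lower at 60 and 72 h. With the assay mean neither was called at 36 h, and with snoRNA202 neither was lower. Over all tested assays, snoRNA202 gave 179 of 250 higher and 20 lower at 60 h. At 72 h it gave 166 of 244 higher and 24 lower. Of 4 tested mesenchymal assays, 3 were higher at 36 h and 3 lower at 60 and at 72 h, while with snoRNA202 1 was lower and 1 higher at 60 h and 1 lower and 2 higher at 72 h. Of 5 tested leukocyte assays, 4 were higher at 36 h, 3 higher and 1 lower at 60 h, and 2 higher and 1 lower at 72 h. The leukocyte assays called higher at 60 and 72 h included miR-142-3p (log2 5.91 at 60 h) and miR-223 (4.06), against the direction of the list's sum. The one called lower was miR-150 (-3.67 at 60 h), which is among the 6 with changes closest to miR-204.

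Of 11 assays of the pigment, retinal and choroid plexus list, markers of the tissues where miR-204 is best known, 4 were detected on no array: miR-211, miR-124, miR-96 and miR-449b. Of 4 that could be tested, 4 were higher at 36 h and 3 at 60 and 72 h, with none lower, among them miR-182 and miR-449a. The fourth, miR-184, had the same order of levels as miR-204, with log2 changes of 2.14, -0.09 and -1.16, and is one of the 51 assays above. Of all tested assays, 44.1%, 28.0% and 20.9% were higher at these times. At 0 h the mean Ct was near the limit for miR-182 (33.5). The same held for miR-449a (33.8) and miR-184 (32.2), each detected in 2 of 3 arrays there. A detection limit of Ct 32 left 1 of the 4 to be tested, and with the assay mean 3 were higher at 36 h. The summed level of the list ran from -12.05 to -11.55 at 0 h, from -8.94 to -8.85 at 36 h, from -8.53 to -8.49 at 60 h and from -9.54 to -9.31 at 72 h. Of 7 epithelial assays 4 were detected on no array, and 1 could be tested, miR-203, called lower at 60 and 72 h but not with snoRNA202 (log2 0.72 and 0.08). The others, miR-200c and miR-205, were detected in 0 arrays at 0 h and in 3 at 36 h. The erythroid miR-451 was detected in no array at 0 h and in 3 at 36 h. Of 5 neural and glial assays, miR-124 and miR-219 were detected on no array, and the summed level lay between -14.22 and -13.19 in all groups. That sum rested on miR-128a alone at 0 h, and miR-9 and miR-338-3p were detected in 0 arrays at 0 h and in 3 at 36 h. Over all of card A, 29 assays were detected in 3 arrays at 36 h and in at most 1 at 0 h, and 3 the other way.

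The muscle-enriched miRNAs are the markers closest to the labelled cell type. Relative to U6 their sum rose at 36 h, as miR-204 did, and went the other way from miR-204 at 60 and 72 h. Of 6 assays, 5 were detected on all 12 arrays of their card and miR-486 on none. Their summed level ran from -4.04 to -3.69 at 0 h, from -3.34 to -3.23 at 36 h, from -1.77 to -1.74 at 60 h and from -1.02 to -0.93 at 72 h. At 0 h the sum was set mainly by miR-206 (level -3.86), with the next assay, miR-133a, at -10.15. At 36 h miR-206 changed by log2 0.48, which was not a call. The other tested assays had by then risen by 1.92 (miR-133a) to 3.96 (miR-133b), more than miR-204 (0.67). Of 5 tested, 4 were higher at 36 h and 5 at 60 and 72 h, and with the assay mean 2 were higher at 36 h and 5 later. Over all tested assays the share called higher was 44.1%, 28.0% and 20.9%. The assay mean gave 59 of 272, 74 of 250 and 72 of 244 higher.

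**Figure D5:**
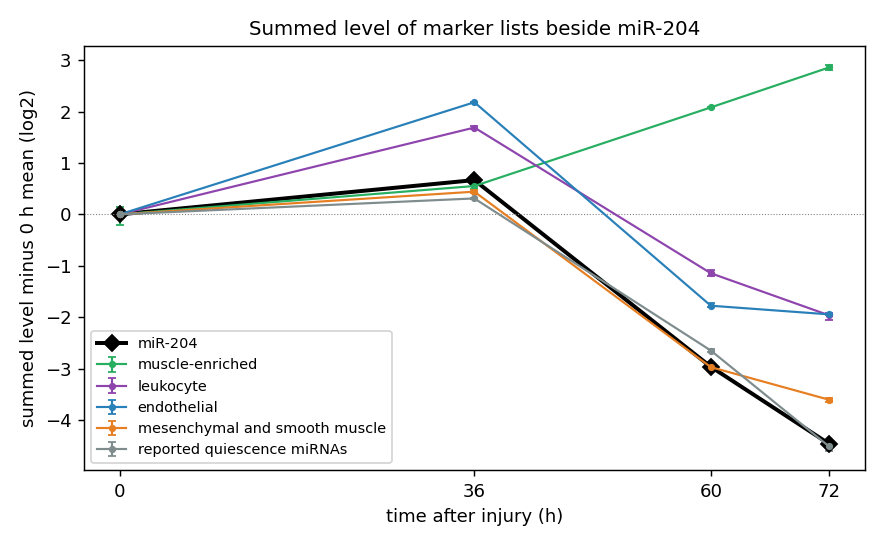
Summed level of 5 marker lists minus their 0 h mean (log2, relative to U6, y axis; bars span the 3 arrays) beside the change of miR-204 (black), by hours after injury (x axis). At 72 h miR-204 is at -4.46, the reported quiescence list at -4.51, the mesenchymal list at -3.60, the endothelial list at -1.94, the leukocyte list at -1.96 and the muscle-enriched list at 2.86. The quiescence sum is set mainly by miR-195, which changed by -4.47 at 72 h. Its 0 h level was -4.20, and the other assays of that list were at -7.62 or lower.

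Over the whole series, 222 assays were detected on all 12 arrays of their card and 219 on none, and 181 to 212 were detected per card A array. In all, 56.2% of the tested assays were called at 36 h, 64.4% at 60 h and 66.8% at 72 h, so a change past the call was usual. The calls numbered 120 higher and 33 lower at 36 h, 70 and 91 at 60 h, and 51 and 112 at 72 h. With snoRNA202 the splits were 180 and 6, 179 and 20, and 166 and 24, and with the assay mean 59 and 89, 74 and 86, and 72 and 79. With snoRNA135 the split at 72 h was 65 and 85. PCR arrays have no read depth, and their number limits the precision.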

How the data were processed

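TaqMan rodent microRNA cards A and B were amplified over 40 cycles (ABI 7900HT), per the labels. The deposited single-array files list 1 Ct per spot, empty where none was determined; the software and threshold used are not given in the sources here. The authors' deposited fold change ratios, averaged over 3 replicates, come from a table per card, of which 84 per-sample columns were not used. Levels were U6 Ct minus assay Ct per array, with spots averaged; detection needed a Ct below 35 in every spot of the assay, and undetected values were left out. The tests used limma 3.58.1 (R 4.3.3), in 1 fit per card over 12 arrays, for assays with at least 2 detected arrays in each group; the fit was tested on simulated data. Named are miR-204, its seed family, its neighbours in the ranks, the 6 most similar assays by each measure, and the list members. miR-204 and the lists were chosen with earlier results of these data known. The labels number the replicates 1 to 3, and the deviations of same-numbered arrays correlated from -0.43 to 0.49 over all pairs of groups; on card B the 3 values lay between 0.34 and 0.49 for 0 h with 60 h and between -0.43 and -0.33 for 36 h with 60 h, so the numbers were not taken as pairs. Alternatives were other normalizers (Y1 and U87, and snoRNA202 for the marker sums, added after seeing the data), detection limits of Ct 32 and 40, undetected values at Ct 35, leaving out each replicate and a replicate block.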

Additional observations from a re-analysis of the deposited data

How the results depend on the processing

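For the 36, 60 and 72 h groups in turn, the log2 change of miR-204 was 1.54, -0.56 and -1.41 with snoRNA202, 0.88, -2.63 and -3.60 with snoRNA135, 0.014, -3.07 and -4.14 with Y1, 0.82, -1.91 and -2.96 with U87, and -0.62, -2.81 and -3.43 with the assay mean. The assay mean gave miR-204 rank 76 among falling assays at 36 h, gave 1 Runx2-list assay called there, miR-30c lower, in place of 2 higher, and turned the passenger strand to -0.21; snoRNA202 made it a call (1.68) and left 3 quiescence-list assays called at 60 h. With undetected values at Ct 35, 6 Runx2-list assays were called at 36 h. Leaving out each replicate gave 0.65 to 0.68 at 36 h, -3.01 to -2.91 at 60 h and -4.49 to -4.42 at 72 h for miR-204. The replicate block left its changes at 0.67, -2.96 and -4.46, with 153, 162 and 162 assays called in all against 153, 161 and 163. Limits of Ct 32 and 40 left the values of miR-204 as they were, since it was detected on all arrays. miR-211 gave no value under any setting.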
